A study of Saccharomyces cerevisiae with 10 samples.

Results

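The transcripts of 10 glycolytic and fermentative genes of *Saccharomyces cerevisiae* were followed in a comparison of strains that differ by 1 base in the promoter of *UBR1*. They are the enolase genes *ENO1* and *ENO2*, their relatives *ERR1*, *ERR2* and *ERR3*, the glyceraldehyde phosphate dehydrogenase (GAPDH) genes *TDH1*, *TDH2* and *TDH3*, the pyruvate decarboxylase gene *PDC1* and the alcohol dehydrogenase gene *ADH1*. They were chosen by name, and all 10 were found among the 6612 transcripts of the deposited tables under the open reading frame names YGR254W (*ENO1*), YHR174W (*ENO2*), YOR393W (*ERR1*), YPL281C (*ERR2*), YMR323W (*ERR3*), YJL052W (*TDH1*), YJR009C (*TDH2*), YGR192C (*TDH3*), YLR044C (*PDC1*) and YOL086C (*ADH1*). The RNA came from 5 replicate cultures of BY, a haploid laboratory strain (*MATa his3Δ hoΔ* in the strain table, BY4741 in the labels), and 5 of BY *UBR1* −469A>T (called the −469A>T strain below), which is BY with the base of the vineyard strain RM at position −469 of the *UBR1* promoter. Ubr1 is the ubiquitin ligase of the Arg/N-end pathway of protein degradation, and the comparison asks whether this promoter base changes transcript levels. All cultures grew side by side in synthetic complete medium with glucose and were harvested together at an optical density near 0.40, with no drug or other treatment given. The −469A>T strain was made from BY by allele exchange. The paper's methods describe the replicates as independent and the kept isolates of each exchanged allele as separately derived, without linking isolates to libraries.

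Glycolysis turns glucose into pyruvate, and yeast growing on glucose converts most of that pyruvate to ethanol even when oxygen is present. GAPDH, encoded by the 3 *TDH* genes, carries out the oxidation step of the pathway and reduces NAD+ to NADH. Enolase makes phosphoenolpyruvate, the last intermediate before pyruvate. Pyruvate decarboxylase then forms acetaldehyde, which alcohol dehydrogenase reduces to ethanol, and this last step gives back the NAD+ that GAPDH consumes. Most steps have several isozymes with similar coding sequences. The *ERR* genes lie near chromosome ends, and the R64 annotation describes *ERR2* and *ERR3* as enolases that can complement the loss of *ENO1* and *ENO2*.

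How far reads can be told apart between these genes decides what their counts mean. Over the coding sequence, *ERR1* (chrXV:1080276-1081589, plus strand, R64 assembly, single exon) and *ERR2* (chrXVI:9557-10870, minus strand) are identical in all 1314 bases, and the 754 bases upstream of both start codons are identical as well. *ERR3* (chrXIII:920088-921401, plus strand) differs from them at 12 positions. These are C48T, A243C, A567G, T645C, T657C, A669G, G691A, C831T, C849T, T891C, T954A and G1119A, written as the base of *ERR1*, the position counted from the A of the start codon and the base of *ERR3*. In 10 of the 12 the amino acid stays the same. The 3 genes lie 9702, 9556 and 3030 bases from their chromosome ends. *ENO1* (chrVII:1000927-1002240, plus strand) and *ENO2* (chrVIII:451327-452640, plus strand) are 94.8% identical to each other, and between 67.6% and 68.1% identical to the *ERR* genes. The stretch from base 639 to base 698 of the coding sequence holds 4 of the 12 differences, and it is shown because reads across such positions are all that separates *ERR3* from its relatives. Sequences are from R64, 5′ to 3′ on the coding strand, and capitals mark bases that differ from *ERR1*.
*ERR1* (chrXV:1080914-1080973): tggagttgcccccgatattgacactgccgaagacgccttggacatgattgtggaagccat
*ERR2* (chrXVI:10173-10232): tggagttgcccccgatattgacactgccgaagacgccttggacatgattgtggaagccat
*ERR3* (chrXIII:920726-920785): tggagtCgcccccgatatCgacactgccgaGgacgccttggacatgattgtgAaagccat
*ENO1* (chrVII:1001565-1001624): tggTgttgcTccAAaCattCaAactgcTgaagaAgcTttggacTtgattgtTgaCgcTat
*ENO2* (chrVIII:451965-452024): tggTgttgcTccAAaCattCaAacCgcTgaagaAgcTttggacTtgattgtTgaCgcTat

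In this stretch *ENO1* and *ENO2* differ from *ERR1* at 14 and 15 of the 60 bases. The *TDH* genes are closer to each other, with 95.8% identity between *TDH2* (chrX:453683-454681, minus strand) and *TDH3* (chrVII:882812-883810, minus strand), 90.2% between *TDH1* (chrX:338271-339269, plus strand) and *TDH2*, and 88.9% between *TDH1* and *TDH3*. The 90 bases from 47 to 136 of their coding sequences, where *TDH2* differs from *TDH3* at 13 positions and *TDH1* at 21, are shown for the same reason, and capitals mark bases that differ from *TDH3*.
*TDH3* (chrVII:883675-883764): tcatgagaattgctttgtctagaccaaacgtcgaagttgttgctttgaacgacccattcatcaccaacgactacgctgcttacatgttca
*TDH2* (chrX:454546-454635): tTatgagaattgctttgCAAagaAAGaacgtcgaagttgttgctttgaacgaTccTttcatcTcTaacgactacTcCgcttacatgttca
*TDH1* (chrX:338317-338406): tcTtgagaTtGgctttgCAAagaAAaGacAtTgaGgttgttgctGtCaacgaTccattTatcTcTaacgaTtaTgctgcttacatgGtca

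Counted in words of 31 bases over the coding sequences of R64, 96.5% of the words of *PDC1* (chrXII:232390-234081, minus strand) and 81.6% of those of *ADH1* (chrXV:159548-160594, minus strand) occur in no other gene, and the shared ones occur in *PDC5* and *ADH2*. The unique share is 73.7% for *TDH1*, 61.2% for *ENO1* and *ENO2*, 56.8% for *TDH3*, 49.4% for *TDH2*, 24.3% for *ERR3* and 0% for *ERR1* and *ERR2*. The reads were sequenced in pairs and were longer than these words. The unique share of words is therefore not the share of reads that can be told apart, which was not measured. None of the 498 shared words of *ENO1* and *ENO2* occurs in an *ERR* gene. No annotated gene of R64 overlaps any of the 10.

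Each library held between 71103539 and 97644549 estimated counts, that is, reads assigned to transcripts by Kallisto, with reads that match several transcripts divided among them. The edited gene *UBR1* had between 134 and 157 normalized CPM in BY (counts scaled to a common library size) and between 162 and 183 in the −469A>T strain, and the strains did not overlap. Each value is an average over a culture, so that a change in some cells and one in all cells cannot be told apart. Among mating-type markers, all 5 markers of a cells lay between 194 and 1035 normalized CPM in every library, and the 3 of alpha cells between 0.0865 and 6.11. Transcripts of *HIS3*, *HO*, *LEU2*, *URA3* and *MET17* were counted in all libraries of both strains, with at least 27.2 normalized CPM each, although the strain table lists *HIS3* and *HO* as deleted. The scaling factors between libraries ran from 1.00 to 1.03 in BY and from 0.953 to 0.995 in the −469A>T strain and did not overlap, so that small differences between the strains can depend on the scaling.

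The genes covered a wide range of levels. In TPM, a measure of transcript abundance that takes length into account, *TDH3* was highest, with a median over the 10 libraries of 10035 and rank 8 of 6612 transcripts. It was followed by *ADH1* at 5951, *ENO2* at 4300.1, *PDC1* at 2931, *TDH2* at 1897, *ENO1* at 1219.8 and *TDH1* at 776. In both strains the ranges of neighbors in this order did not overlap, except for *ENO1* and *TDH1* in the −469A>T strain, where *ENO1* ran from 1012 to 1580.2 TPM and *TDH1* from 646 to 1287. Together these 7 took between 5.72% and 6.69% of all estimated counts of a library. *ERR1* and *ERR2* had a median of 0.627 TPM each and *ERR3* one of 0.115. *ENO1* and *ENO2* together had between 2815 and 5578 times the TPM of the 3 *ERR* genes together.

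**Figure D1:**
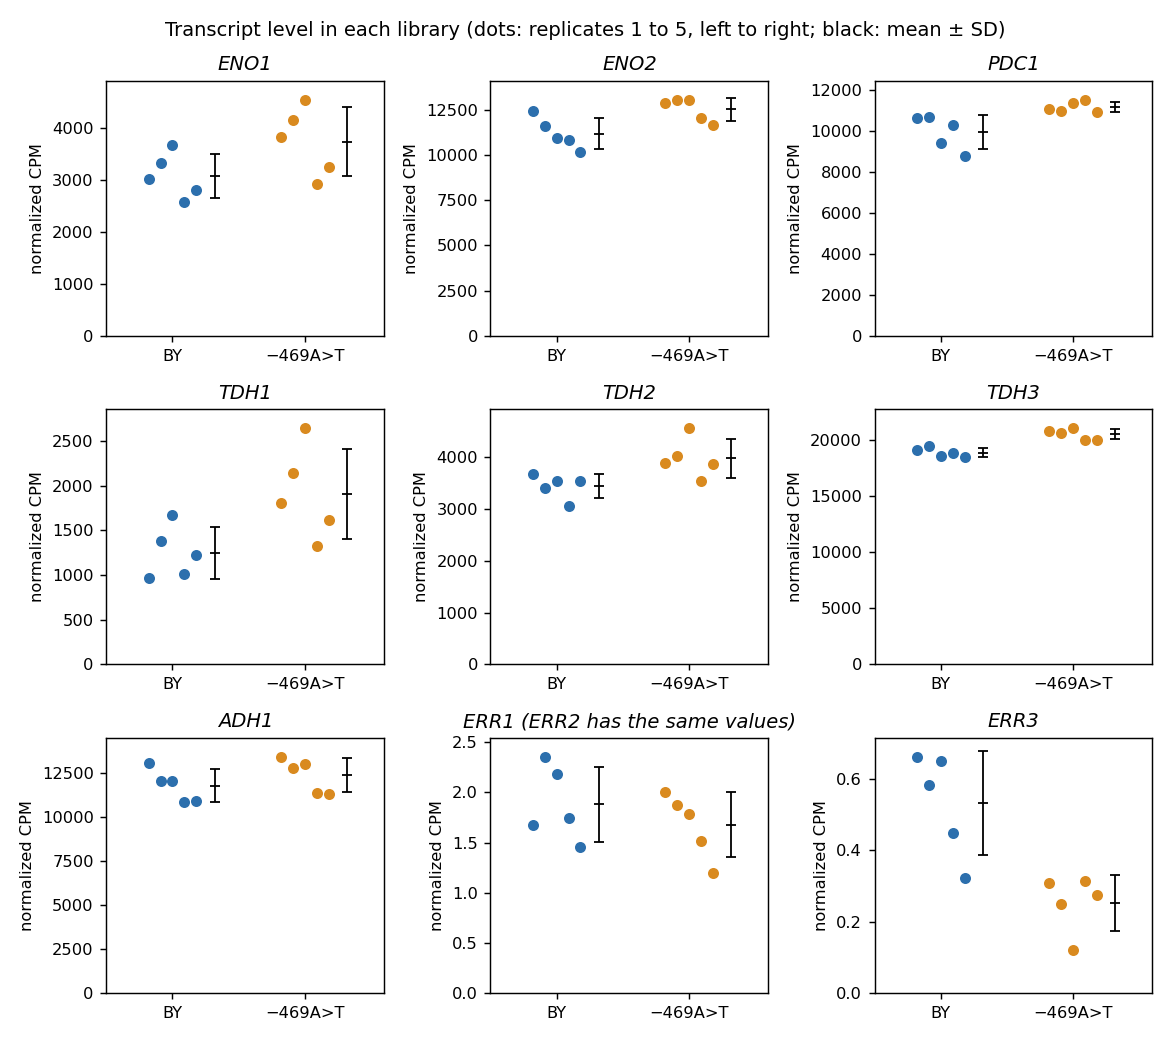
Normalized CPM (vertical axis, from 0) of each gene in BY (blue) and BY *UBR1* −469A>T (orange), with 1 dot for each of the 5 replicates in the order of their numbers, and the mean and SD in black. The mean of each of the 7 abundant genes was lower in BY, and only for *TDH3*, *PDC1* and *ERR3* did the libraries of the strains not overlap in this scaling. Of all 5987 tested transcripts, 175 showed such a separation in either direction.

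Of the 10 genes, 8 passed the threshold for a call, an adjusted p under 0.1 over the 5987 transcripts that were tested, and all 10 genes were among these. The abundant genes *ENO1*, *ENO2*, *TDH1*, *TDH2*, *TDH3*, *PDC1* and *ADH1* were the 7 called lower in BY, *ERR3* was called higher, and *ERR1* and *ERR2* were not called. Over all tested transcripts, 21.2% were called, 11.9% as lower and 9.32% as higher in BY. Fold changes are given as BY over the −469A>T strain, with the standard error after the sign ±. The median log2 fold change was -0.17 over the 10 genes and -0.0012 over all tested transcripts. The 10 include *ERR1* and *ERR2* as separate genes, although their counts were the same in every library. These calls came from a quasi-likelihood test (edgeR) in which 2 surrogate variables entered as covariates, which are estimated from the counts themselves. They depended on these covariates: without surrogate variables none of the 10 was called (0% of all transcripts), although 6 had p under 0.05 before adjustment, and with 1 only *ENO2* was (0.718% of all). They also rested on single libraries, since without BY replicate 5 only *ENO2* was called (4.11% of all transcripts), and likewise without replicate 2 of the −469A>T strain (5.49% of all). The direction of the 7 abundant genes was the same in each of these fits. The paper's own test also had extraction batch and optical density as covariates, and at the same threshold it called far fewer transcripts.

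**Figure D2:**
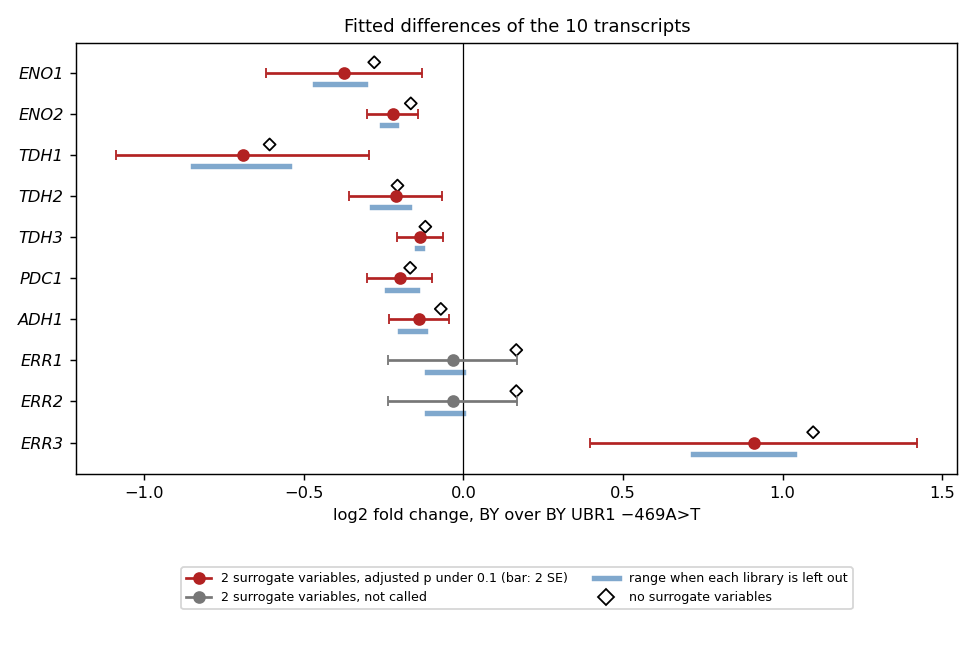
Log2 fold change of BY over the −469A>T strain (horizontal axis) for the 10 genes. Circles with bars of 2 standard errors are from the fit with 2 surrogate variables (red where called), blue lines span the fits that each left out 1 library, and diamonds are from the fit without surrogate variables. *TDH1* lay farthest to the left at -0.69 and *ERR3* farthest to the right at 0.91.

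*ENO2* encodes the enolase that prevails during growth on glucose. In BY replicates 1 to 5 its levels were 12404, 11570.1, 10908, 10806 and 10160.3 normalized CPM, and in the −469A>T strain they were 12866, 13031, 13028, 12057 and 11643. The highest BY library overlapped the libraries of the −469A>T strain, and the other 4 BY libraries lay below all of them. *ENO2* was 1.17-fold higher in the −469A>T strain (log2 fold change -0.22 ± 0.0400, adjusted p = 0.0065 by edgeR). Of the 10 genes it was the one whose call held with each library left out in turn, at adjusted p values up to 0.066.

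*ENO1*, the isozyme that is less dependent on glucose, varied more between replicates. It had 3024, 3332, 3678, 2579.7 and 2816 normalized CPM in BY replicates 1 to 5 and 3839, 4171, 4551, 2921 and 3251 in the −469A>T strain. In both strains the library numbered 3 was highest and the one numbered 4 lowest, and the strains overlapped. The gene was 1.30-fold higher in the −469A>T strain (log2 fold change -0.38 ± 0.122, adjusted p = 0.067 by edgeR), while a comparison of log2 CPM without covariates gave p = 0.10 (exact two-sided permutation test). This call did not hold without BY replicate 2, 4 or 5 or replicate 2 of the −469A>T strain, with an adjusted p between 0.11 and 0.24. Since *ENO1* and *ENO2* share words, their counts were also summed and fitted as 1 feature, which gave a log2 fold change of -0.26 ± 0.0507 (adjusted p = 0.011, edgeR).

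*TDH3* encodes the main GAPDH of growing cells and was the steadiest of the 10 genes. BY replicates 1 to 5 had 19102, 19407, 18550.1, 18803 and 18443 normalized CPM, and replicates 1 to 5 of the −469A>T strain had 20752, 20635, 21018, 20027 and 20025. Every BY library was below every library of the −469A>T strain (p = 0.0079, the smallest that an exact two-sided permutation test of 5 against 5 allows), a separation that 1.54% of all tested transcripts showed in this direction. The difference was small, 1.10-fold (log2 fold change -0.14 ± 0.0366, adjusted p = 0.034 by edgeR), and larger than the spread between replicates, which was 0.0309 on the log2 scale (SD within strains). This call did not hold without BY replicate 5 or replicate 2 of the −469A>T strain, with an adjusted p between 0.14 and 0.18. The difference depended on the scaling: in the TPM values the strains overlapped, from 9579 to 10360.3 in BY and from 9747 to 10376 in the −469A>T strain, and with library totals as the only scaling the log2 fold change was -0.07 (adjusted p = 0.12).

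*TDH1*, the GAPDH gene otherwise known for expression as cells enter stationary phase, had the largest fall in BY of the 10. Its levels were 965, 1379, 1676, 1008 and 1224 normalized CPM in BY replicates 1 to 5 and 1804, 2145, 2641, 1326 and 1612 in the −469A>T strain. The 3 lowest libraries were of BY and the 3 highest of the −469A>T strain, with an overlap between 1326 and 1676. *TDH1* was 1.61-fold higher in the −469A>T strain (log2 fold change -0.69 ± 0.198, adjusted p = 0.044 by edgeR), with p = 0.040 in the exact two-sided permutation test. The call was lost without BY replicate 5 or replicate 2 of the −469A>T strain, with an adjusted p between 0.15 and 0.24. As for *ENO1*, the library numbered 3 was highest in both strains, and the spread within strains of 0.356 on the log2 scale was the widest of the 7 abundant genes.

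*TDH2*, whose protein differs little from that of *TDH3*, had 3672, 3404, 3539, 3062 and 3535 normalized CPM in BY and 3891, 4018, 4552, 3539 and 3866 in the −469A>T strain. The strains overlapped in part, since BY replicate 1 lay within the range of the −469A>T strain and the other 4 BY libraries below it, the nearest by 3539.06 against 3539.15 normalized CPM. The gene was 1.16-fold higher in the −469A>T strain (log2 fold change -0.21 ± 0.0726, adjusted p = 0.078 by edgeR). The call was lost without BY replicate 2, 4 or 5 or replicate 1, 2 or 3 of the −469A>T strain, with an adjusted p between 0.11 and 0.22. Summed with *TDH3*, the log2 fold change was -0.15 ± 0.0395 (adjusted p = 0.032, edgeR).

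*PDC1* encodes the major pyruvate decarboxylase. Its levels were 10638, 10683, 9404, 10296 and 8782 normalized CPM in BY replicates 1 to 5 and 11062, 10994, 11388, 11527 and 10953 in the −469A>T strain. BY ran wider than the −469A>T strain, with an SD of 0.124 against 0.0330 on the log2 scale, and again none of the BY libraries reached the −469A>T strain (p = 0.0079, exact permutation test, two-sided). Such a separation in this direction was shown by 1.54% of all tested transcripts. *PDC1* was 1.15-fold higher in the −469A>T strain (log2 fold change -0.20 ± 0.0513, adjusted p = 0.028 by edgeR). It was not called without BY replicate 5 or replicate 2 of the −469A>T strain, with an adjusted p between 0.10 and 0.25. In TPM the strains overlapped, from 2414 to 3029 in BY and from 2865 to 2966 in the −469A>T strain. They also overlapped in CPM with library totals as the only scaling and with upper-quartile scaling.

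*ADH1*, whose product makes ethanol, overlapped between the strains more than the other called genes. It had 13086, 12048, 12056, 10856 and 10922 normalized CPM in BY replicates 1 to 5 and 13428, 12814, 13022, 11388 and 11295 in the −469A>T strain. The ranges covered each other almost fully, and without covariates the permutation test gave p = 0.35 (exact, two-sided). In every same-numbered pair of libraries BY was the lower. With the replicate number as a block and no surrogate variables, the log2 fold change was -0.07 (adjusted p = 0.17, edgeR). With the covariates the gene was 1.10-fold higher in the −469A>T strain (log2 fold change -0.14 ± 0.0475, adjusted p = 0.076 by edgeR). It was not called without BY replicate 2, 4 or 5 or replicate 1 or 2 of the −469A>T strain, with an adjusted p between 0.11 and 0.19. The log2 fold change without surrogate variables was -0.07 (adjusted p = 0.50), and with library totals as the only scaling it was -0.07 (adjusted p = 0.19). In TPM the direction turned, with 5815 ± 514 in BY and 5766 ± 455 in the −469A>T strain (SD over 5 libraries).

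*ERR1* and *ERR2* received the same estimated count in every library, with a largest difference of 0 counts, so that they hold 1 measurement and not 2. That count was 124, 189, 202, 170.1 and 136 for each gene in BY replicates 1 to 5 and 191, 162, 166, 107 and 107 in the −469A>T strain. Scaled to the libraries, this was 1.67, 2.35, 2.19, 1.74 and 1.46 normalized CPM in BY and 2.01, 1.87, 1.79, 1.51 and 1.20 in the −469A>T strain, and the strains overlapped. Neither gene was called (log2 fold change -0.03 ± 0.101, adjusted p = 0.86 by edgeR), and the interval of 2 standard errors ran from -0.24 to 0.17. The sign changed to 0.17 without surrogate variables (adjusted p = 0.53).

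*ERR3* was the only one of the 10 genes called higher in BY. Its estimated counts were 48.9, 46.7, 60.1, 43.8 and 30.1 in BY replicates 1 to 5 and 29.4, 21.5, 11.3, 22.3 and 24.4 in the −469A>T strain, which were 0.663, 0.583, 0.650, 0.449 and 0.322 and 0.309, 0.249, 0.121, 0.315 and 0.274 normalized CPM. In CPM the BY libraries all exceeded those of the −469A>T strain (p = 0.0079, exact permutation test), as did 1.39% of all tested transcripts, and 1.88-fold higher levels were fitted for BY (log2 fold change 0.91 ± 0.256, adjusted p = 0.041 by edgeR). This call was lost without BY replicate 5 or replicate 1 or 2 of the −469A>T strain, with an adjusted p between 0.10 and 0.17. The gap was narrow, between BY replicate 5 and replicate 4 of the −469A>T strain. At counts this low the counting error alone was wide: the 95% Poisson interval ran from 0.217 to 0.459 CPM in BY replicate 5 and from 0.195 to 0.471 in replicate 4 of the −469A>T strain. Such intervals cover counting error only, and leave out the division of reads between *ERR* genes.

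Of all *ERR* counts, 16.5, 11.0, 12.9, 11.4 and 9.96% were assigned to *ERR3* in BY replicates 1 to 5 and 7.14, 6.23, 3.27, 9.43 and 10.3% in the −469A>T strain. Only the BY library numbered 5 reached into the range of the −469A>T strain (exact two-sided permutation test, p = 0.016). With the counts of the 3 genes summed into 1 feature, nothing was called, at a log2 fold change of 0.05 ± 0.0834 (adjusted p = 0.73, edgeR). The call for *ERR3* rests on reads across the few positions that set it apart from *ERR1* and *ERR2*. How much of the difference comes from the assignment of reads was not tested.

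**Figure D3:**
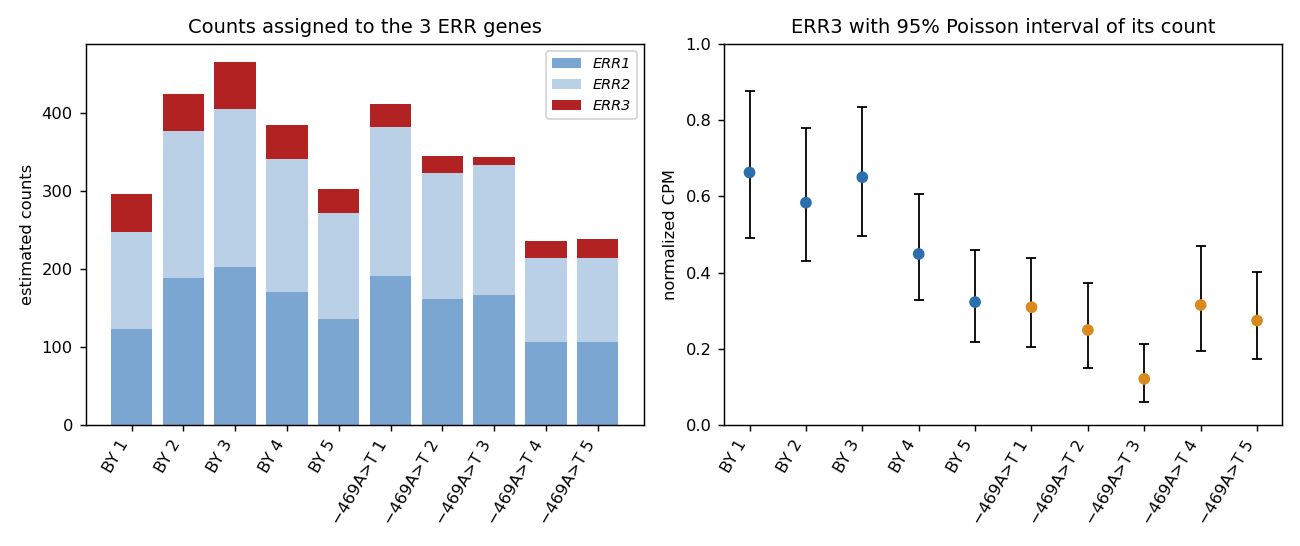
Left, estimated counts (vertical axis) of *ERR1*, *ERR2* and *ERR3*, stacked for each library. Right, normalized CPM of *ERR3* in each library of BY (blue) and the −469A>T strain (orange), with the 95% Poisson interval of its count. The segments of *ERR1* and *ERR2* are equal in every library, and *ERR3* takes between 3.27% and 16.5% of a bar.

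A ratio of isozymes within a library does not depend on the scaling between libraries, and 5 such ratios were compared in TPM. The log2 ratio of *ENO2* to *ENO1* was 2.04, 1.80, 1.57, 2.07 and 1.85 in BY replicates 1 to 5 and 1.74, 1.64, 1.52, 2.05 and 1.84 in the −469A>T strain. The ranges of the strains overlapped (exact two-sided permutation test, p = 0.40). In every same-numbered pair of libraries this ratio was higher in BY. Paired by number, an exact test that flips the signs of pair differences gave p = 0.0625, the smallest that 5 pairs allow. For *TDH1* to *TDH3* it was -4.31, -3.81, -3.47, -4.22 and -3.91 in BY and -3.52, -3.27, -2.99, -3.92 and -3.64 in the −469A>T strain. The ranges overlapped, and the difference of -0.48 had p = 0.079 (exact two-sided permutation test). Those of *TDH2* to *TDH3* and of *PDC1* to *ADH1* differed by -0.09 (p = 0.25) and -0.10 (p = 0.21) in the same exact permutation test, less than the range of either strain. The ratio of the summed *ERR* genes to the summed enolase genes was -11.91, -11.46, -11.50, -11.73 and -11.97 in BY and -11.91, -12.07, -12.22, -12.13 and -12.45 in the −469A>T strain. It was higher in BY by 0.44 on the log2 scale, with p = 0.016 in the exact two-sided permutation test and p = 0.079 after adjustment over the 5 ratios, so that no ratio passed 0.05 once adjusted.

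**Figure D4:**
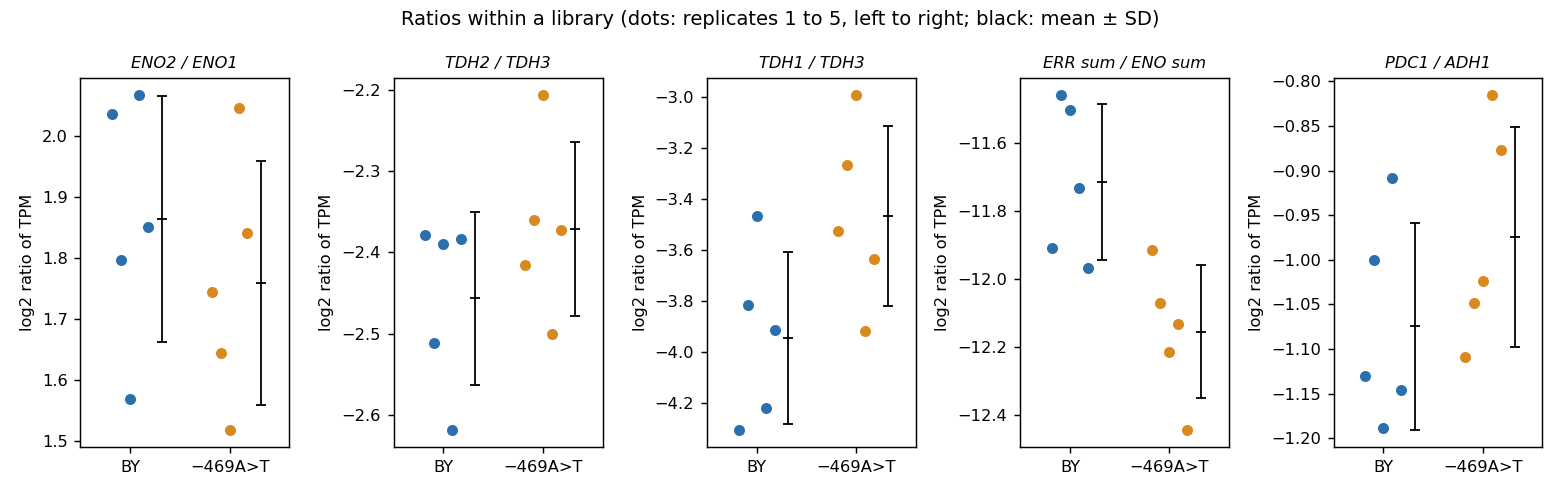
Log2 ratio of TPM within a library (vertical axis, a separate range in each panel) for 5 pairs, with 1 dot for each replicate of BY (blue) and the −469A>T strain (orange) and the mean and SD in black. The ratio of the *ERR* genes to the enolase genes has the smallest p of the 5, with a mean of -11.71 ± 0.231 in BY and -12.16 ± 0.196 in the −469A>T strain (SD, n = 5 in each strain).

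The rest of the pathway was described by a list of 41 other genes of glycolysis, fermentation and the branches to acetate and glycerol, with transcription factors of glycolytic genes. Of the 41, 10 were called lower in BY, 7 higher and 24 neither, and the median log2 fold change was -0.0048. Over all tested transcripts the shares were 11.9% lower and 9.32% higher. In lower glycolysis they were 3 of 6, with log2 fold changes of -0.20 ± 0.0586 for *PGK1* (phosphoglycerate kinase) and -0.21 ± 0.0477 for *CDC19* (the main pyruvate kinase), beside *GPM1* (phosphoglycerate mutase). In upper glycolysis 3 of 8 were lower, which were *TPI1* (triose phosphate isomerase) with a log2 fold change of -0.19 ± 0.0545, *PFK2* (a subunit of phosphofructokinase) and *PGI1* (glucose phosphate isomerase). For *PGI1* the strains did not overlap in normalized CPM, a separation that 1.54% of all tested transcripts showed in this direction. In TPM they overlapped, from 863 to 932 in BY and from 897 to 1008 in the −469A>T strain. Another 2 of the 8, *PFK26* and *PFK27*, whose kinases make an activator of phosphofructokinase, were higher in BY, with log2 fold changes of 0.26 ± 0.0389 and 0.22 ± 0.0472. None of the 4 genes that phosphorylate glucose was called. With library totals as the only scaling, a fit chosen after seeing the data, 7 of the 41 were lower and 15 higher. *PGI1*, *ADH4* and *TYE7* were no longer called in that fit, and the 4 genes that phosphorylate glucose were called higher in BY.

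Around pyruvate and ethanol, genes moved in both directions. *PDC5*, a second pyruvate decarboxylase whose reads are partly shared with *PDC1*, was higher in BY, where *PDC1* was lower. *PDC5* had 34.9 ± 7.54 normalized CPM in BY and 26.6 ± 2.95 in the −469A>T strain (SD over 5 libraries). Its log2 fold change was 0.20 ± 0.0363 with the 2 surrogate variables and 0.39 without them (adjusted p = 0.19 by edgeR). *PDC6*, a minor isozyme at 1.12 ± 0.161 normalized CPM in BY and 1.40 ± 0.185 in the −469A>T strain (SD over 5 libraries), was lower, with a log2 fold change of -0.36 ± 0.112, as was the alcohol dehydrogenase gene *ADH4*. The acetate branch of the list held *ACS2* and genes of acetaldehyde dehydrogenases, which lead to acetate instead of ethanol. Of its 6 genes, 3 were called higher in BY and none lower. The 3 not called were *ALD2* and *ALD3*, with log2 fold changes of -0.11 ± 0.0617 and -0.32 ± 0.128, and *ACS2*, with one of 0.06 ± 0.0630. *ALD6*, which encodes the main cytosolic acetaldehyde dehydrogenase, had 1686 ± 263 normalized CPM in BY and 908 ± 390.5 in the −469A>T strain (SD over 5 libraries). Its log2 fold change was 0.67 ± 0.153 with the 2 surrogate variables and 0.89 without them (adjusted p = 0.17 by edgeR). The mitochondrial *ALD4* had a log2 fold change of 0.53 ± 0.0695, and *ALD5*, whose libraries did not overlap between strains, one of 0.19 ± 0.0525. In the glycerol branch *GPD1*, which encodes a glycerol phosphate dehydrogenase, was higher in BY with a log2 fold change of 0.22 ± 0.0485, and its isozyme *GPD2* was lower with one of -0.36 ± 0.0498. *GPD1* ran from 692 to 1294 normalized CPM in BY and from 420 to 1098 in the −469A>T strain. Without surrogate variables its log2 fold change was 0.52 (adjusted p = 0.23, edgeR). The strains also overlapped for *GPD2*, *ALD4* and *ALD6*. In normalized CPM they did not overlap for 2 of the 41 genes, *PGI1* and *ALD5*, and for 175 of all 5987 tested transcripts. Of the 6 transcription factors only *TYE7*, an activator of glycolytic genes, was called, as lower. The number called in the list was 0 without surrogate variables (and 17 at p under 0.05 before adjustment), 7 without BY replicate 5 and 8 without replicate 2 of the −469A>T strain. Over all tested transcripts, these fits called 0%, 4.11% and 5.49%. Without surrogate variables, 1400 of the 5987 had p under 0.05 before adjustment (edgeR).

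**Figure D5:**
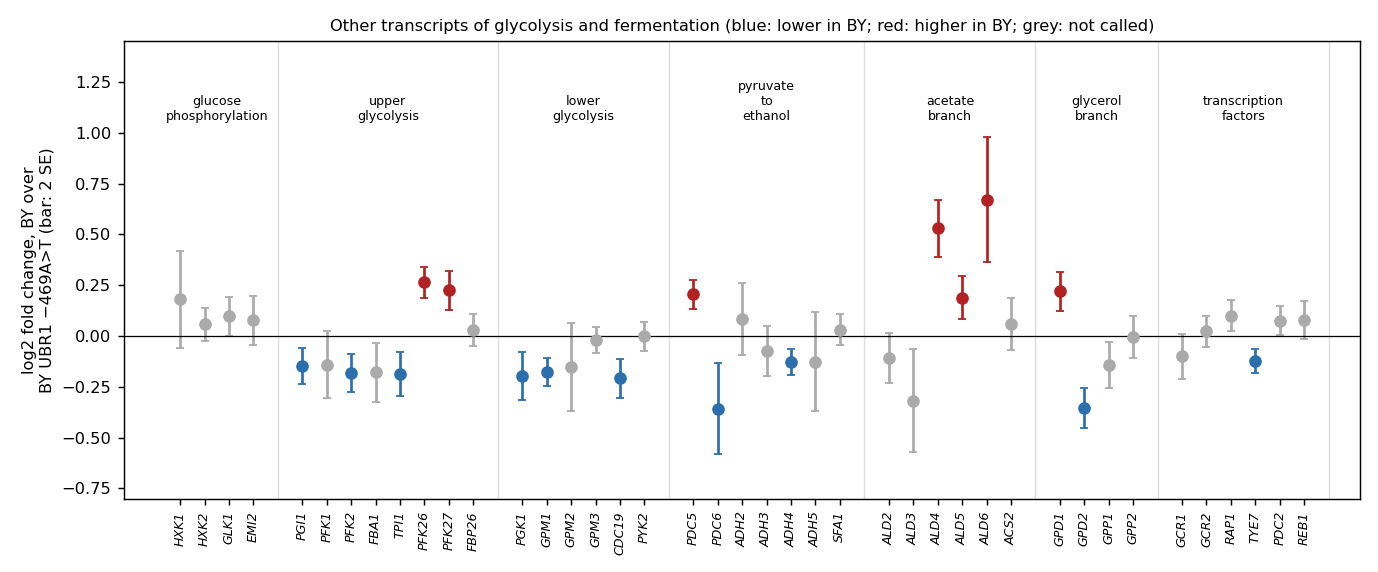
Log2 fold change of BY over the −469A>T strain (vertical axis, bars of 2 standard errors) for the 41 other genes, grouped by role. Genes called lower in BY are blue, those called higher are red, and the rest are grey; *ALD6* is highest at 0.67.

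For 4 of the genes or sums, the transcripts with the most similar pattern were those with the highest Pearson's r of log2 CPM over the 10 libraries, among 5562 other transcripts whose estimated count reached 100 in each library. The libraries share their scaling and the strain difference, and the values are the highest of many, so they carry no p. For the summed *ERR* genes they were *RIM15* (r = 0.98, rho = 0.98, r = 0.98 without the 2 farthest libraries), *ATG9* (r = 0.98, rho = 0.99, r = 0.96 without the 2 farthest libraries) and *FBP26* (r = 0.98, rho = 0.95, r = 0.95 without them). For *TDH1* they were *HSP31* (r = 0.99, rho = 0.98, r = 0.99 without the 2 farthest libraries), *YGP1* (r = 0.98, rho = 0.99, r = 0.99 without the 2 farthest libraries) and YHR112C (r = 0.98, rho = 0.96, r = 0.97 without them). Those for *ENO1* were *GPG1* (r = 0.97, rho = 0.95, r = 0.95 without the 2 farthest libraries), *URA10* (r = 0.97, rho = 0.98, r = 0.95 without the 2 farthest libraries) and YPR127W (r = 0.95, rho = 0.93, r = 0.92 without them). For *PDC1*, *PHO91* (r = 0.96, rho = 0.88, r = 0.77 without the 2 farthest libraries), *SWA2* (r = 0.93, rho = 0.77, r = 0.67 without the 2 farthest libraries) and *GSP1* (r = 0.93, rho = 0.83, r = 0.84 without them) came closest, and here the similarity weakened more than elsewhere without the libraries farthest from the median. No transcript was on more than 1 of these lists.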

How the data were processed

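The analysis started from the deposited Kallisto table of each of the 10 libraries. According to the paper's methods, the authors trimmed and filtered reads with fastp and pseudoaligned them to the Ensembl transcripts (release 96), whose assembly the text does not name; the Kallisto version and strand setting are not given in the sources used here. The estimated counts that the authors deposited are not normalized and were rounded for the tests. Deposited TPM values are scaled within a library by effective length and served for levels and ratios only. Lengths of all 10 members matched R64, the source of coordinates and sequences.

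Transcripts with at least 10 rounded counts in every library were kept (5987 of 6612), a threshold taken from the paper, whose filters on transcript integrity and effective length were not applied. The quasi-likelihood test of edgeR 4.0.16 (R 4.3.3) was used with TMM scaling and 2 surrogate variables (sva 3.50.0). Calls needed a p under 0.1 after Benjamini-Hochberg adjustment. The paper used DESeq2 with extraction batch and optical density as well; DESeq2 1.42.0 was an alternative, without batch and density. Standard errors were derived from the F statistic. Procedures were tested on simulated data. Ratios and log2 CPM were compared by exact permutation tests with these cultures as the units. Each p is the share of all splits into groups of the same sizes whose mean difference was at least as large in either direction. Genes named are the 10, *UBR1*, markers, relatives by shared words, list genes called or not overlapping (values for the 12 largest changes) and the 3 most similar transcripts. The uncalled genes of the acetate branch were added to show both directions. The members and lists were chosen with earlier results of these data known. Alternatives covered the test, surrogate variables, replicate block, scaling, filter, threshold, summed relatives and each library left out.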

Additional observations from a re-analysis of the deposited data

How the results depend on the processing

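Among all transcripts, the 10 genes and the 41 others of the pathway, 1269, 8 and 17 were called. Without surrogate variables 0, 0 and 0 were (with 1400, 6 and 17 when p under 0.05 was taken without adjustment), and with 1 surrogate variable 43, 1 and 3. With 3 it was 1841, 8 and 26. With the replicate block and no surrogate variables 2373, 7 and 27 were called, and with the block and 2 surrogate variables 43, 1 and 1. At an adjusted p under 0.05 it was 756 and 5 for all transcripts and the 10 genes. With library totals as the only scaling, added after seeing the data, it was 2164 for all transcripts, and 6 of the 10 genes, without *TDH3* and *ADH1*. With each library left out in turn the counts ran from 246 to 1289, from 1 to 8 and from 7 to 20. They were lowest without BY replicate 5, and without replicate 2 of the −469A>T strain they were 329, 1 and 8. DESeq2 called 1430 transcripts and the same 7 abundant genes; its independent filtering gave the *ERR* genes no adjusted p. *ERR3* was not tested at a minimum of 100 counts.

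The replicate numbers were not taken to pair the samples, since same-numbered libraries' deviations correlated at -0.0096 for number 3, against 0.29 to 0.69 for the other 4 numbers, and 3 of 5 libraries of each strain correlated best with their own number. With the replicate block and 2 surrogate variables, *ERR3* was at -0.25 (adjusted p = 0.89) and *TDH2* at 0.00028 (adjusted p = 1.00), on the other side of 0. *ENO2* was at -0.08 (adjusted p = 0.66) and *ADH1* at -0.01 (adjusted p = 0.97) in this fit, whose 1 call among the 10 genes was *TDH1*. *UBR1* was at -0.22 without surrogate variables (adjusted p = 0.16), -0.22 with 1 (adjusted p = 0.20), -0.34 with the replicate block and 2 (adjusted p = 0.11) and -0.25 to -0.17 with each library left out (adjusted p from 0.0088 to 0.16, not called without BY replicate 5). With each library left out the ratio of *TDH1* to *TDH3* differed by -0.60 to -0.36, with exact permutation p from 0.040 to 0.15. With same-numbered libraries paired, the ratio of the *ERR* to the enolase genes differed by 0.44, and the smallest p that 5 pairs allow is 0.0625, so that no paired ratio test can pass 0.05. Depth limits the transcripts with the fewest counts, such as *ERR3* and *PDC6*. The cause of these changes was not tested.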
